A study of Sus scrofa with 15 samples.

Results

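The genes followed here encode the enzymes that assemble triglyceride by the glycerol phosphate route: GPAM, GPAT3 and GPAT4 for the first step, AGPAT2 and AGPAT3 for the second, LPIN1, LPIN2 and LPIN3 for the third, and DGAT1 and DGAT2 for the last. They were chosen by symbol as the acyltransferases and phosphatases of the route, with earlier results of these data known, and not by their counts. Of the 10 genes, 9 had a row among the 30477 Ensembl genes of the count files, and all 9 passed the filter on low counts beside 14918 genes in all. AGPAT2, which the RefSeq annotation of Sscrofa11.1 places on an unplaced scaffold, was not analysed here. The levels come from RNA-seq of backfat (subcutaneous fat) biopsies of growing Iberian pigs on 3 diets, 5 pigs and 5 libraries per diet. C was a standard compound feed, DOP a compound feed made with dry olive pulp, and WCOC a compound feed given together with a silage of wet crude olive cake that the pigs could eat freely. By the paper, compound feed was rationed, at a higher share of free energy intake in C than in DOP and WCOC. All pigs were of the same breed and each diet was fed in its own pen. Effects of the olive by-product, of the ration and of the pen therefore cannot be told apart. Counts on genes ranged from 22373715 to 34745218 per library.

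Triglyceride is built by adding fatty acids, carried by coenzyme A, to a glycerol backbone. GPAT enzymes attach the first fatty acid to glycerol-3-phosphate and make lysophosphatidic acid, AGPAT enzymes attach the second and make phosphatidic acid, lipins remove the phosphate to leave diacylglycerol, and DGAT enzymes attach the last fatty acid. In fat cells this is the route by which both newly made fatty acids and those taken up from blood are stored, and loss of AGPAT2 or of other enzymes of the route is a known cause of failure to form fat tissue.

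The 15 libraries carried the markers of fat: the 11 adipocyte markers that could be matched (of 12 listed) summed to 17440 to 26660 CPM, none of them at 0. CPM here are counts scaled to a common library size after TMM normalization. Skeletal muscle markers (11 of 18 matched) varied between pigs, summing to 228 to 5075 CPM in C, 207 to 60240 CPM in DOP and 197 to 1137 CPM in WCOC, with 1 of the 11 at 0 throughout each diet, and 4 libraries, 3 of DOP and 1 of C, exceeded 5000 CPM. The 12 macrophage markers summed to 298 to 886 CPM in C, 203 to 505 CPM in DOP and 149 to 386 CPM in WCOC. By the run identifiers, 1 flow cell carried the DOP libraries and control replicate 5, and a further one carried WCOC and control replicates 1 to 4. In tissue RNA, fewer cells of a type and less RNA per cell cannot be told apart.

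Levels of different genes were compared per kilobase of exon (RPKM). DGAT2, the acyltransferase that closes the route on newly made fatty acids, stood far above the rest at 2472 ± 678 RPKM (SD, n = 15 libraries), and by CPM it ranked 22 among the 14918 tested genes. GPAT4, a glycerol-3-phosphate acyltransferase of the endoplasmic reticulum, followed at 191.5 ± 34.8 RPKM, and LPIN1, the main phosphatidic acid phosphatase of fat and muscle, at 58.0 ± 10.1 RPKM. DGAT1, the second and structurally unrelated diacylglycerol acyltransferase, was at 30.4 ± 5.37 RPKM. The order of these 4 genes held in each of the 15 libraries.

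The other 5 genes were much lower: LPIN3 at 8.67 ± 1.28 RPKM, AGPAT3 at 7.04 ± 0.795, GPAM at 4.73 ± 0.885, GPAT3 at 2.59 ± 0.640 and LPIN2 at 2.58 ± 0.362 (SD, n = 15). LPIN3 was above AGPAT3 in 14 of 15 libraries. GPAT3 was above LPIN2 in 8 of 15, and the order of this last pair was not resolved. The annotated exons of GPAT4 (1557 bp) and DGAT2 (1478 bp) are short and those of AGPAT3 (10747 bp) and LPIN2 (10691 bp) long, mostly outside the coding sequence. When levels were divided by coding length instead, DGAT2 (3374), GPAT4 (218) and LPIN1 (165) kept the first places, AGPAT3 (66.9) came before DGAT1 (62.8), and GPAT3 (6.42) was last.

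**Figure D1:**
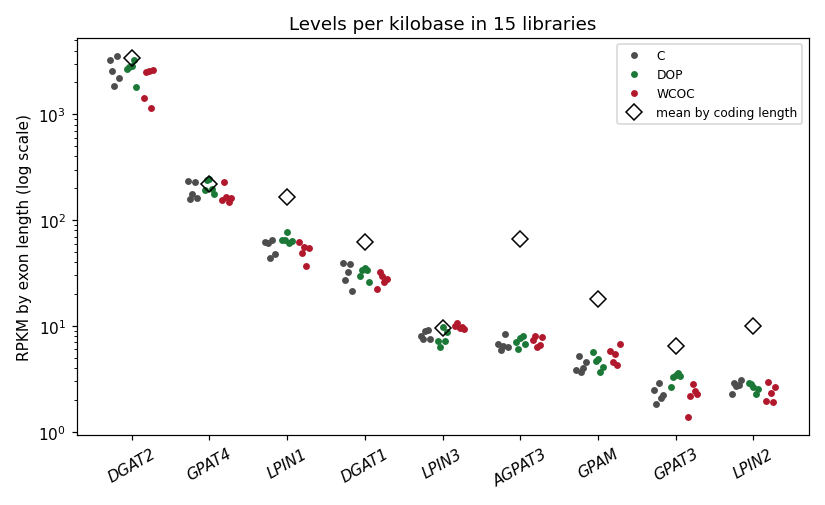
Level of each gene in reads per kilobase of exon, scaled by library size (log axis), 5 libraries per diet shown as points, with the mean over 15 libraries by coding length as a diamond. DGAT2 lies between 1142 and 3562 RPKM in all libraries and GPAT4 between 149 and 245, above the other 7 genes.

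Within a step, 1 gene supplied most of the measured transcripts. GPAT4 made up 96.2% ± 0.782 (SD, n = 15) of the summed GPAT level and DGAT2 98.7% ± 0.337 of the summed DGAT level. LPIN1 made up 83.4% ± 3.43 of the lipin level, with LPIN3 at 12.8% ± 3.09 and LPIN2 at 3.80% ± 0.736. By coding length the leading shares were 89.7% for GPAT4, 98.1% for DGAT2 and 89.1% for LPIN1, and LPIN2 and LPIN3 were then at 5.50% and 5.38%. Counts were made per Ensembl gene and lengths come from RefSeq models, in which GPAT4 and DGAT2 have little sequence outside the coding part. Neither length need match the region counted, and the SDs do not hold that error. By exon length the LPIN1 share was 84.9% to 87.7% in the DOP pigs and 75.9% to 83.8% in the WCOC pigs, and the LPIN3 share 8.50% to 11.7% and 13.5% to 20.1%, so that the ranges of these diets did not touch for either gene. By coding length the LPIN1 ranges did touch (90.3% to 91.3% in DOP, 85.2% to 90.4% in WCOC), and those of LPIN3 did not (3.44% to 4.86% and 5.69% to 8.79%). In C the LPIN1 share by exon length (79.2% to 85.8%) overlapped both. Shares of a step are parts of 1 total, so those of LPIN1 and LPIN3 are not independent. By CPM, 8.9% of all genes did not overlap between WCOC and DOP, and no such background was computed for shares. These diets were on different flow cells, and 3 DOP libraries were high in muscle markers, whose part in the shares was not tested.

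None of the 9 genes was called between any pair of diets. A gene was called when its adjusted p from the edgeR quasi-likelihood test (Benjamini-Hochberg, over all 14918 genes) was under 0.05 and its log2FC, the log2 fold change of the fitted levels, was at least 0.58 in size, a fold of 1.49. The count was 0 of 9 in DOP vs. C, where 0.764% of all tested genes were called, 0 of 9 in WCOC vs. C (6.25% of all genes), and 0 of 9 in WCOC vs. DOP (7.76% of all genes). The background itself moved with single libraries, from 0 to 200 genes in DOP vs. C (114 with all libraries), from 468 to 1163 in WCOC vs. C (933) and from 639 to 1291 in WCOC vs. DOP (1158) when each was left out, and was 2 genes in DOP vs. C when only those diets were fitted. With backgrounds this low, 0 of 9 does not set the assembly genes apart from other genes. DESeq2 called 0 of 9 as well in each comparison. Of the 22840 genes it tested, it called 518 in DOP vs. C, 1215 in WCOC vs. C and 1528 in WCOC vs. DOP. At an unadjusted p under 0.05, 1 of 9 genes passed in DOP vs. C (GPAT3), 2 in WCOC vs. C (GPAM and LPIN3) and 3 in WCOC vs. DOP (GPAT3, LPIN1 and LPIN3), beside 17.6%, 26.4% and 28.1% of all genes. With an adjusted p under 0.05 and no limit on size, the counts were 0 of 9 in DOP vs. C (0.925% of all genes), 0 of 9 in WCOC vs. C (10%) and 1 of 9, GPAT3, in WCOC vs. DOP (12.3%). The median log2FC of the 9 genes was 0.07 in DOP vs. C, −0.12 in WCOC vs. C and −0.19 in WCOC vs. DOP, beside 0.01, 0.004 and 0.0007 over all tested genes. The 95% interval of the log2FC lay wholly within 0.58 of zero for 8, 7 and 5 of the 9 genes, against 57.4%, 51.9% and 52.4% of all genes. For the members in those counts a larger change was outside the interval of this fit, and for the rest it was not resolved with 5 pigs per diet. The intervals hold no term for the flow cell, so they do not exclude a larger change. DGAT1 in WCOC vs. DOP had an interval of −0.52 to 0.14, and −0.89 with flow cell as a covariate. The 3 comparisons share samples and are not independent of each other.

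**Figure D2:**
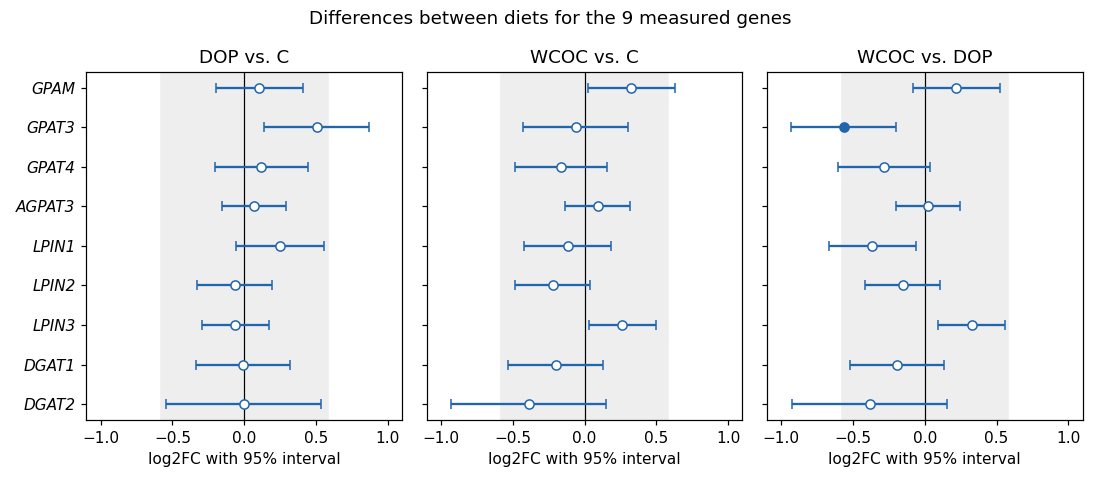
Log2FC of the 9 genes in the 3 comparisons, as points with 95% intervals. The grey band marks a log2FC of up to 0.58 in size, and a filled point has an adjusted p under 0.05. The only filled point is GPAT3 in WCOC vs. DOP at −0.56.

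The promoters of 3 genes are shown, as the 250 bases before the annotated start in RefSeq Sscrofa11.1: GPAT3, which had the smallest adjusted p, LPIN3, whose C and WCOC libraries did not overlap, and DGAT2, the most abundant. GPAT3 lies on chromosome 8 (chr8:134912493-135002140, minus strand), LPIN3 on chromosome 17 (chr17:43993710-44006188, plus strand) and DGAT2 on chromosome 9 (chr9:10032163-10066082, plus strand). The windows are chr8:135002141-135002390 for GPAT3, chr17:43993460-43993709 for LPIN3 and chr9:10031913-10032162 for DGAT2, all upstream of the gene. Capitals mark matches, on either strand, to the 4 motifs searched: CACGTG (E-box), TCACNCCAC (sterol element), CCAAT (the CCAAT box) and GGGCGG (GC box), where overlapping matches run together.
GPAT3: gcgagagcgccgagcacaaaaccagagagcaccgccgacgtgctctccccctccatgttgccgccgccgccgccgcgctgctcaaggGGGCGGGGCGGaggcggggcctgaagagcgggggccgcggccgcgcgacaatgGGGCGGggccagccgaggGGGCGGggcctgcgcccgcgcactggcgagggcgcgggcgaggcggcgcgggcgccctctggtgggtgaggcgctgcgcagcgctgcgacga
LPIN3: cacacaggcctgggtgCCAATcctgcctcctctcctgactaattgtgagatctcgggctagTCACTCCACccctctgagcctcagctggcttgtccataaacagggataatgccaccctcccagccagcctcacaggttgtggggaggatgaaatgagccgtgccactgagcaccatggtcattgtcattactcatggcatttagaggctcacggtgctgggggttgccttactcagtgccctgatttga
DGAT2: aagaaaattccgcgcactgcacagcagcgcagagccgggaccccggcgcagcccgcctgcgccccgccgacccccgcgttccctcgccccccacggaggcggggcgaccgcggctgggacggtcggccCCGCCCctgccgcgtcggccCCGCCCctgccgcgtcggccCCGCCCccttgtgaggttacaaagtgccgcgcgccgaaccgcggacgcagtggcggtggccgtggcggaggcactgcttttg
The GPAT3 window was 79.6% GC and held 4 GC boxes, of which 2 overlap, and the DGAT2 window (77.2% GC) held 3, within a repeated stretch. The LPIN3 window was 55.6% GC, held no GC box, and had 1 CCAAT box and 1 match to TCACNCCAC. Over the windows of all 10 genes, AGPAT2 included, GGGCGG was found in 6 (44.4% of 20664 windows of the same length before protein-coding genes), CCAAT in 2 (32.0%), TCACNCCAC in 1 (0.769%) and CACGTG in 0 (6.16%). A match gives only the letters and not the binding of a factor.

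The first step is carried out by GPAM in the mitochondrial outer membrane and by GPAT3 and GPAT4 in the endoplasmic reticulum. GPAT3, whose expression is known to rise as fat cells mature, was at 8.09, 5.94, 9.46, 6.82 and 7.26 CPM in C replicates 1 to 5, at 8.64, 10.8, 11.2, 11.6 and 10.9 CPM in DOP, and at 4.52, 7.08, 9.21, 7.88 and 7.35 CPM in WCOC. In 4 of 5 DOP pigs the level was above all libraries of the other diets, and the DOP pig with 8.64 CPM lay within their range. GPAT3 was lower in WCOC than in DOP by a log2FC of −0.56 (SE 0.17, 95% interval −0.93 to −0.20, edgeR adjusted p = 0.0439), a fold of 0.676 that falls short of the size limit. DOP vs. C gave 0.50 (SE 0.17, 0.14 to 0.87, edgeR adjusted p = 0.157) and WCOC vs. C −0.06 (SE 0.17, −0.43 to 0.31, edgeR adjusted p = 0.856). Counts behind these values were the lowest of the 9 genes, 138 to 364 per library. With flow cell as a covariate the edgeR adjusted p of WCOC vs. DOP was 0.447 (log2FC −0.63), with the skeletal muscle markers as a covariate 0.216 (−0.45), and it was under 0.05 in 4 of the 15 fits that left out 1 library (0.0328 to 0.0865). Another annotated locus overlaps GPAT3 on the other strand. The paper aligned the reads as coming from a strand-specific protocol. The strand setting of the counting is not given in the sources used here, so reads of the pair may not be separable.

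The 5 tested genes with a symbol whose levels moved most like those of GPAT3, by Pearson's r of log2 CPM centred within each diet over the 15 libraries, were ZSWIM5 (0.88), CYP4F22 (0.82), DPF2 (0.76), DHCR7 (0.76) and FAM167B (0.75), taken from 11954 genes. ZSWIM5 had only 8 to 27 counts per library. The median r of GPAT3 with all tested genes was 0.02.

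GPAT4 was at 366, 248, 277, 358 and 252 CPM in C, at 299, 372, 382, 306 and 273 CPM in DOP, and at 242, 356, 259, 231 and 251 CPM in WCOC. In WCOC 4 pigs lay together and replicate 2 was higher, and all ranges overlapped. The log2FC was 0.12 in DOP vs. C (SE 0.15, edgeR adjusted p = 0.738), −0.16 in WCOC vs. C (SE 0.15, edgeR adjusted p = 0.519) and −0.28 in WCOC vs. DOP (SE 0.15, edgeR adjusted p = 0.240).

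GPAM was at 35.9, 48.8, 35.0, 38.0 and 43.3 CPM in C, at 54.0, 44.0, 45.5, 34.4 and 38.4 CPM in DOP, and at 54.2, 42.9, 51.7, 40.0 and 63.2 CPM in WCOC. In 3 of 5 WCOC pigs the level was above every control, with the other 2 inside the control range. The log2FC of WCOC vs. C was 0.33 (SE 0.14, 95% interval 0.02 to 0.63, edgeR adjusted p = 0.163), opposite in sign to GPAT3 and GPAT4 in that comparison. Over the 15 libraries, centred within diets, GPAM varied inversely with the mean log2 level of the skeletal muscle markers (r = −0.74, Spearman's rho = −0.72). Its r was 0.61 with the T and B cell, 0.33 with the endothelial, −0.14 with the adipocyte, 0.08 with the macrophage and −0.08 with the epidermis markers. The part of muscle in the GPAM values was not tested beyond the covariate fit, and that of the other markers was not tested. In the covariate fit the log2FC was 0.24 in WCOC vs. C, 0.23 in DOP vs. C (0.11 without the covariate) and 0.0066 in WCOC vs. DOP (0.22 without it).

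AGPAT3, an acyltransferase of the second step, had the narrowest spread between pigs of the 9 genes, with a coefficient of variation of 11.3% over the 15 libraries. Its range was 64.0 to 90.3 CPM in C (median 69.4), 64.8 to 86.9 in DOP (75.1) and 68.6 to 85.7 in WCOC (79.0). The log2FC lay between 0.02 and 0.09 in the 3 comparisons (SE 0.10 each, edgeR adjusted p from 0.619 to 0.910), with all 95% intervals inside −0.20 to 0.31. Of the other acyltransferases of glycerolipid synthesis, 6 of 8 listed genes could be matched and 5 were tested, with 0 called in each comparison. AGPAT1, a further enzyme of the second step, was at 1297 CPM in C, 1152 CPM in DOP and 1087 CPM in WCOC (means of n = 5), with a log2FC of −0.26 in WCOC vs. C (SE 0.19, edgeR adjusted p = 0.412).

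**Figure D3:**
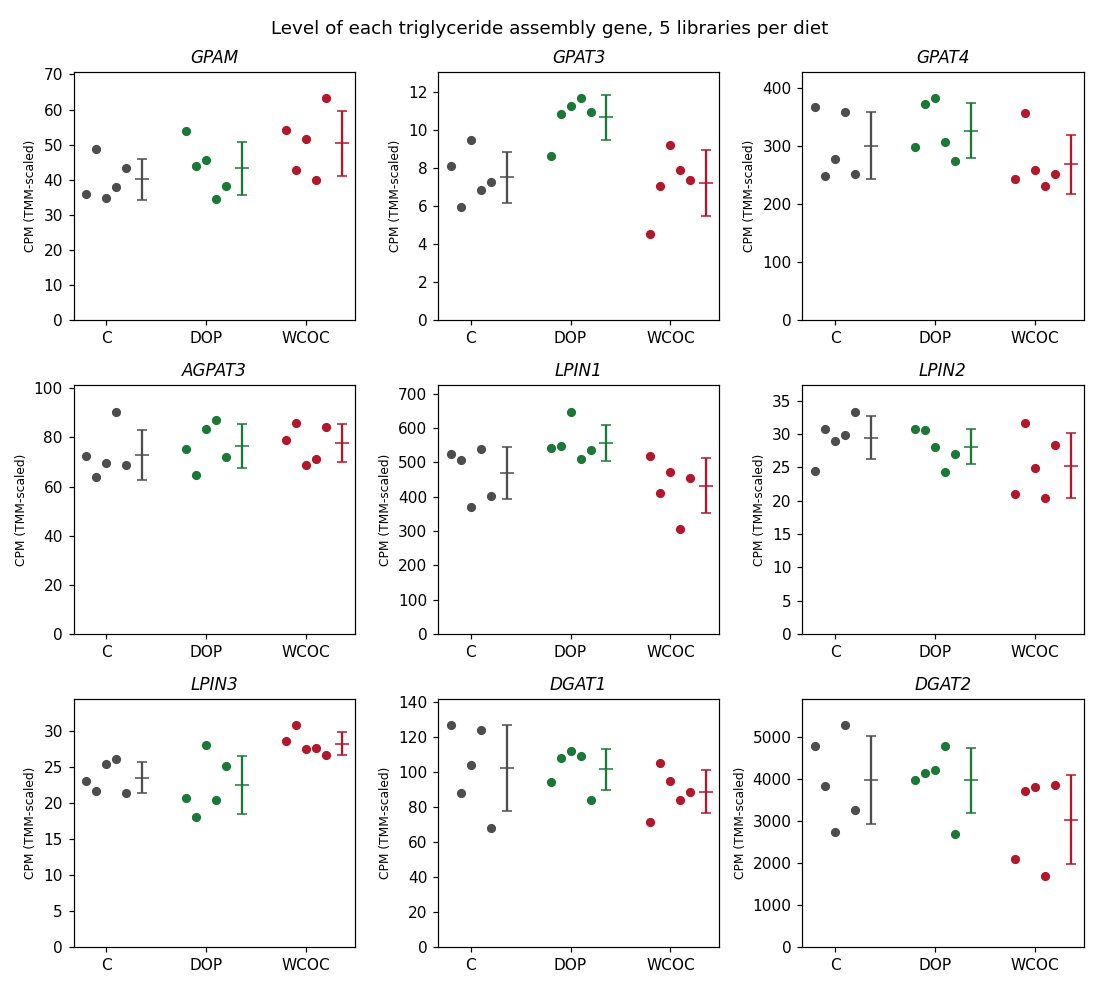
CPM of the 9 genes in each library by diet, points for the 5 pigs and bars for the mean and SD, with axes starting at 0. LPIN3 is the gene whose WCOC points (26.7 to 30.8 CPM) all lie above the C points (21.4 to 26.1 CPM).

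The lipins take the phosphate from phosphatidic acid, and lipin 1 also acts in the nucleus as a coactivator. LPIN1 was at 525, 507, 370, 539 and 403 CPM in C, at 543, 549, 647, 511 and 536 CPM in DOP, and at 519, 411, 471, 307 and 455 CPM in WCOC. In 4 of 5 DOP pigs the level exceeded all WCOC pigs, and the lowest DOP pig (511) fell just under the highest WCOC pig (519). LPIN1 had a log2FC of −0.37 in WCOC vs. DOP (SE 0.14, 95% interval −0.67 to −0.06, edgeR adjusted p = 0.108), 0.25 in DOP vs. C (SE 0.14, edgeR adjusted p = 0.389) and −0.12 in WCOC vs. C (SE 0.14, edgeR adjusted p = 0.643). Another annotated locus overlaps LPIN1 on the same strand.

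LPIN3 was at 23.1, 21.7, 25.5, 26.1 and 21.4 CPM in C, at 20.8, 18.2, 28.2, 20.4 and 25.2 CPM in DOP, and at 28.6, 30.8, 27.5, 27.7 and 26.7 CPM in WCOC. All WCOC pigs were above all controls, and DOP replicate 3 was the only DOP pig within the WCOC range. The difference was small, with a log2FC of 0.26 in WCOC vs. C (SE 0.11, 95% interval 0.03 to 0.50, edgeR adjusted p = 0.142) and 0.33 in WCOC vs. DOP (SE 0.11, 0.09 to 0.56, edgeR adjusted p = 0.0634). The DESeq2 adjusted p of WCOC vs. DOP was 0.0388, at a log2FC of 0.33. Values that did not overlap between diets were found for 1 of 9 genes in WCOC vs. C (LPIN3), where 7.62% of all genes had none, and for 0 of 9 in DOP vs. C (3.47%) and WCOC vs. DOP (8.9%).

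LPIN2 had a median of 29.8 CPM in C (24.4 to 33.3), 28.1 CPM in DOP (24.3 to 30.7) and 24.8 CPM in WCOC (20.4 to 31.7), and the ranges overlapped. Its log2FC was −0.22 in WCOC vs. C (SE 0.12, edgeR adjusted p = 0.269), against the positive value of LPIN3. Centred within diets, LPIN2 varied with the macrophage markers (r = 0.64, rho = 0.59, n = 15). Its r was 0.55 with the T and B cell, −0.53 with the endothelial, −0.46 with the skeletal muscle, 0.34 with the epidermis and −0.01 with the adipocyte markers. The macrophage markers were lower in WCOC than in C for 12 of 12 genes, 6 of them called (3.93% of all genes were called lower). The part of these markers in the LPIN2 values was not tested. Of the 5 lipin regulators and other lipid phosphate phosphatases, 0 were called. Under the limit on size but with an edgeR adjusted p under 0.05 in WCOC vs. DOP were CTDNEP1, the phosphatase that acts on lipin (log2FC −0.41, SE 0.10, adjusted p = 0.0215), and PLPP1 (log2FC −0.38, SE 0.10, adjusted p = 0.0244). With flow cell as a covariate the edgeR adjusted p was 0.409 for CTDNEP1 (log2FC −0.41) and 0.277 for PLPP1 (−0.63).

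DGAT2 was at 4767, 3824, 2732, 5264 and 3261 CPM in C, at 3969, 4140, 4206, 4784 and 2701 CPM in DOP, and at 2092, 3713, 3812, 1688 and 3860 CPM in WCOC. In WCOC 3 pigs lay inside the control range and replicates 1 and 4 were below every other library of the study. The mean was 3033 ± 1054 CPM in WCOC and 3970 ± 1045 CPM in C (SD, n = 5), a log2FC of −0.39 (SE 0.25, 95% interval −0.93 to 0.15, edgeR adjusted p = 0.349), and −0.38 against DOP (SE 0.25, −0.92 to 0.16, edgeR adjusted p = 0.351). Leaving out 1 library moved the value against C between −0.23 (without WCOC replicate 4) and −0.51 (without C replicate 3), and the value against DOP between −0.22 and −0.50. DGAT2 had the widest spread between pigs of the 9 genes, with a coefficient of variation of 27.4% over 15 libraries, and its intervals were the widest too.

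DGAT1 was at 127, 88.0, 104, 124 and 68.3 CPM in C, at 94.6, 108, 112, 109 and 84.3 CPM in DOP, and at 71.7, 105, 95.1, 83.9 and 88.7 CPM in WCOC. The WCOC pigs all lay within the control range, which control replicate 5 extended downwards. The log2FC was −0.01 in DOP vs. C (SE 0.15, edgeR adjusted p = 0.985), −0.20 in WCOC vs. C (SE 0.15, edgeR adjusted p = 0.429) and −0.19 in WCOC vs. DOP (SE 0.15, edgeR adjusted p = 0.452). HSF1 overlaps DGAT1 on the other strand.

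The pigs of a diet differed from each other in several of these genes together. Centred within diets, over 15 libraries, 4 of the 36 pairs of genes had a Pearson's r over 0.5, and the median was 0.22 (−0.50 to 0.82). These values describe libraries that share depth, scaling and tissue make-up, and carry no test. The closest pair was GPAT4 and DGAT1, from the first and the last step (r = 0.82, rho = 0.91, and r = 0.77 without the 2 libraries farthest from the median of GPAT4). DGAT2 went with GPAT4 (r = 0.62, rho = 0.76, 0.56 without 2 libraries) and DGAT1 (r = 0.63, rho = 0.71, 0.63 without 2). DGAT2 and LPIN1 had r = 0.57 and rho = 0.46, which fell to 0.15 without 2 libraries and so rests on those. GPAT4 also varied with the adipocyte markers (r = 0.84, rho = 0.81), as did AGPAT3 (r = 0.75, rho = 0.77), DGAT1 (r = 0.68, rho = 0.70), DGAT2 (r = 0.60, rho = 0.71) and LPIN1 (r = 0.60, rho = 0.63). With the endothelial markers r was −0.65 for GPAT4, −0.45 for AGPAT3, −0.34 for DGAT1, −0.22 for DGAT2 and −0.04 for LPIN1. What these markers contribute to the pairs was not tested. GPAM and GPAT3, of the same step, had r = −0.50 (rho = −0.55).

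**Figure D4:**
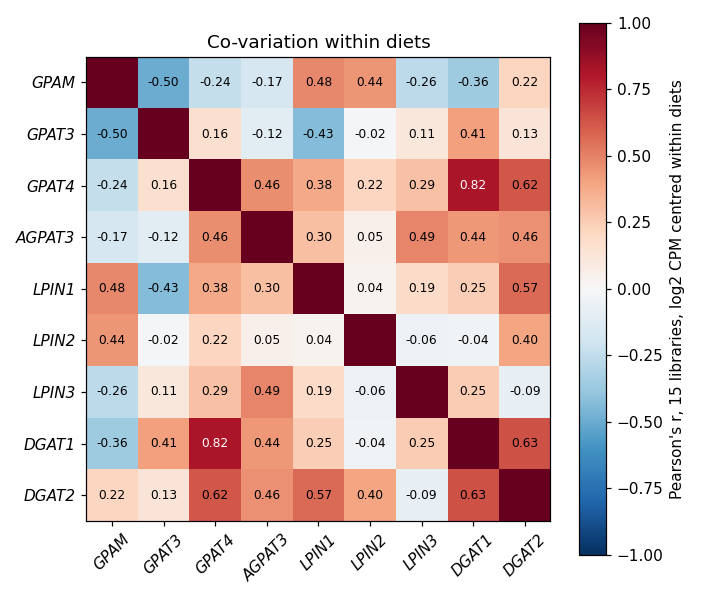
Pearson's r between the 9 genes over 15 libraries, log2 CPM centred within diets (red positive, blue negative). GPAT4 and DGAT1 form the darkest pair at 0.82, and the row of GPAT3 is pale or blue except with DGAT1.

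DGAT2 varied between pigs with several, but not all, of the 9 tested genes of acyl-CoA supply. Within diets its r was 0.88 with ACACA (rho = 0.88), the enzyme that commits acetyl-CoA to fatty acid synthesis, 0.83 with FASN (rho = 0.86), the fatty acid synthase, 0.81 with ACSL1 (rho = 0.77), which activates fatty acids with coenzyme A, and 0.78 with SCD (rho = 0.73), the desaturase that makes oleic acid. ELOVL6 (0.75) and ACLY (0.69) were also positive, and ACSL3 (−0.23), ACSL4 (−0.45) and ACSL5 (−0.38), further genes that activate fatty acids, were negative. FITM2, which aids lipid droplet formation, had r = 0.83 (rho = 0.85). CHPT1, of the branch to phospholipids, had r = 0.81 (rho = 0.74, rank 47 of 14917 genes), and PCYT1A, of the same branch, −0.74 (rho = −0.64). FITM2 and CHPT1 were picked for a high r, and PCYT1A for a low one, from the 57 tested genes around the route. Ranked among 14917 genes by r with DGAT2, ACACA, FASN, ACSL1, SCD and FITM2 stood at 10, 23, 49, 87 and 32, and without the 2 libraries farthest from the DGAT2 median r was 0.83, 0.78, 0.81, 0.71 and 0.73. DGAT2 also varied with the mean log2 level of the adipocyte markers (r = 0.60, rho = 0.71), whose part in these relations was not tested.

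Genes that feed, regulate or compete with the route were examined in the same fit. Of 67 genes listed around the route, 60 were matched and 57 tested, with 0 called in DOP vs. C. In WCOC vs. C, 1 was called higher (2.33% of all genes were) and 6 lower (3.93%), and the median log2FC of the 57 was −0.05. In WCOC vs. DOP, 1 was called higher (2.65%) and 5 lower (5.11%), with a median of −0.08. With flow cell as a covariate the genes called were 2 in DOP vs. C, 8 in WCOC vs. C and 0 in WCOC vs. DOP. Over all genes that fit called 170, 680 and 1. The calls it added were of lower levels: PLIN2 (log2FC −1.14) and ACSL4 (−0.76) in DOP vs. C, and MLXIPL (−0.63) and PCYT2 (−0.75) in WCOC vs. C.

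The list of acyl-CoA supply, the genes that make and activate fatty acids, was drawn up with earlier results of these data known. The paper, on the same pigs, reports FASN, ACACA, ELOVL6 and SCD as downregulated in WCOC, so the counts of the list are no independent evidence. Here ACACA (log2FC −0.53, SE 0.23, edgeR adjusted p = 0.163) and SCD (−0.56, SE 0.26, adjusted p = 0.192) were not called in WCOC vs. C. Of the 9 tested members of the list, 9 had a negative log2FC in WCOC vs. C, with a median of −0.56, and 4 were called lower (3.93% of all genes were). These were FASN (log2FC −1.38, SE 0.32, edgeR adjusted p = 0.0192), ACLY, which makes acetyl-CoA in the cytosol (−1.19, SE 0.31, adjusted p = 0.0302), ELOVL6, a fatty acid elongase (−0.92, SE 0.21, adjusted p = 0.0163), and ACSL1 (−0.87, SE 0.25, adjusted p = 0.0442). Against DOP the same 4 genes were called lower, at −1.31, −1.09, −0.75 and −1.26 (adjusted p from 0.00872 to 0.0380). WCOC and DOP were on different flow cells, and with flow cell as a covariate 1 of 14918 genes was called in WCOC vs. DOP, and it was no gene of the lists around the route (edgeR adjusted p from 0.253 to 0.311 for these 4 genes). In WCOC vs. C that covariate left FASN, ACLY and ELOVL6 called and took the call of ACSL1 (edgeR adjusted p = 0.0508). Levels of FASN were 11570 CPM in WCOC, 28620 CPM in DOP and 30040 CPM in C (means of n = 5). The DGAT2 mean was lower in WCOC too, by −0.39, without passing the test, and the difference between DGAT2 and these genes in response to diet was not tested. The skeletal muscle markers varied widely between pigs, and their summed levels overlapped between the diets (228 to 5075 CPM in C, 207 to 60240 in DOP, 197 to 1137 in WCOC). Their median log2FC was −2.43 in WCOC vs. C, with 0 of 10 called. In WCOC vs. DOP it was −5.81, with 6 of 10 called lower (5.11% of all genes were). The part of these markers in the differences of acyl-CoA supply was not tested.

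On the glycerol side, PCK1, which turns oxaloacetate into phosphoenolpyruvate on the way to glycerol-3-phosphate in fat cells, rose in WCOC vs. C (268 against 63.4 CPM, log2FC 2.08, SE 0.37, edgeR adjusted p = 0.00569), and was the only one of the 3 tested genes of glycerol-3-phosphate supply to be called. Among 6 tested lipid droplet genes, PLIN2, a coat protein of droplets in many cell types, fell in WCOC vs. C (log2FC −0.95, SE 0.19, edgeR adjusted p = 0.00946), and PLIN1, the coat protein of fat cells, had 0.49 (SE 0.14, adjusted p = 0.0427), under the limit on size. Of the 15 tested genes of the branches that lead from phosphatidic acid and diacylglycerol to phospholipids, 0 were called in each of the 3 comparisons. With flow cell as a covariate PCYT2 was called lower in WCOC vs. C (log2FC −0.75, edgeR adjusted p = 0.0224).

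Among the 6 tested genes of triglyceride hydrolysis, which undo the work of the assembly enzymes, G0S2, an inhibitor of the lipase ATGL, rose in WCOC vs. DOP (48.0 against 18.1 CPM, log2FC 1.40, SE 0.40, edgeR adjusted p = 0.0363). ABHD5, the activator of the same lipase, had a log2FC of −0.58 (−0.5761 before rounding, SE 0.10, adjusted p = 0.00452), which was just under the limit on size. Among the 8 transcription factors and regulators of the route, INSIG1, which holds SREBP in the endoplasmic reticulum, fell in WCOC vs. C (log2FC −0.77, SE 0.11, edgeR adjusted p = 0.00133) and had −0.48 (SE 0.11, adjusted p = 0.0159) against DOP. PPARGC1A, a coactivator that muscle expresses too, fell in WCOC vs. DOP (0.636 against 3.12 CPM, log2FC −2.29, SE 0.68, edgeR adjusted p = 0.0438). In that comparison 10 of 10 skeletal muscle markers were lower and 6 were called (5.11% of all genes were called lower). The part of muscle in the PPARGC1A values was not tested. With flow cell as a covariate neither G0S2 (log2FC 0.53, edgeR adjusted p = 0.787) nor PPARGC1A (−3.15, adjusted p = 0.392) was called in WCOC vs. DOP. ABHD5 (−0.76, edgeR adjusted p = 0.253) and INSIG1 (−0.67, adjusted p = 0.309) were not under 0.05 in that fit either. INSIG1 stayed called in WCOC vs. C (−0.80, edgeR adjusted p = 0.00273).

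**Figure D5:**
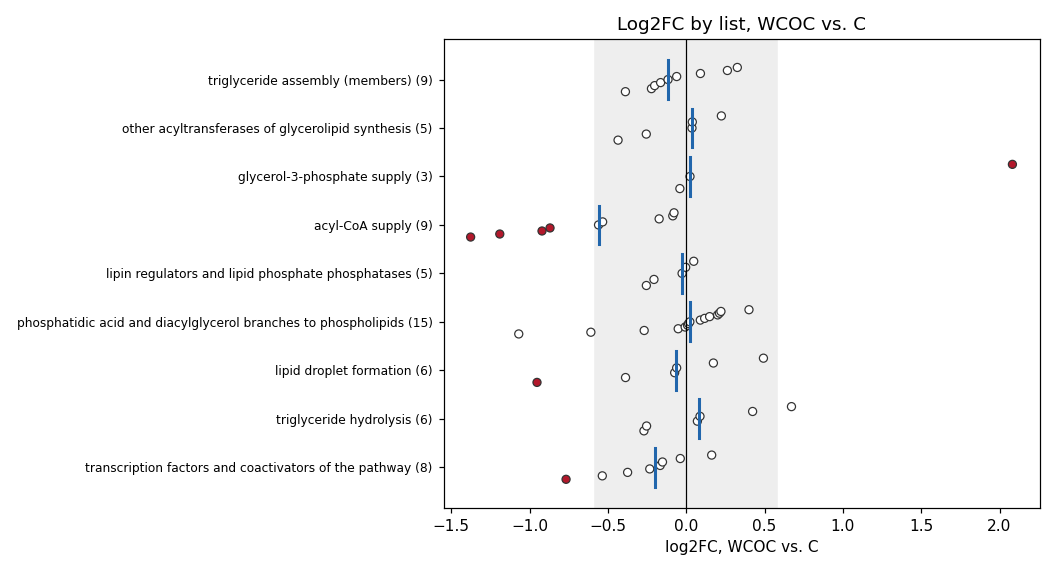
Log2FC of WCOC vs. C for the 9 assembly genes and the tested genes of the 8 other lists (numbers in brackets), 1 point per gene. Red points were called, the blue line is the median of a list, and the grey band is a log2FC of up to 0.58 in size. All 9 assembly genes lie in the band, and 4 of 9 genes of acyl-CoA supply lie to its left.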

How the data were processed

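Backfat RNA of 15 Iberian pigs, 5 per diet, was sequenced as 1 paired-end library per pig. Per the labels and the study's methods, the authors checked reads with FastQC, aligned them to Sscrofa11.1 using HISAT2 and obtained counts for each Ensembl gene using HTSeq. The deposited values are raw counts of read pairs per gene, not normalized and not pooled, and the 5 summary lines of each file (23.4% to 32.8% of a library) stayed out of library sizes and tests. The 5 pigs of a diet were picked by the authors for the amount and quality of their RNA, and p-values measure the spread between these pigs.

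Counts were analysed with edgeR 4.0.16 in R 4.3.3. The function filterByExpr kept 14918 genes, libraries were scaled by TMM (factors 0.857 to 1.21), and all 15 libraries entered 1 quasi-likelihood model that gave each diet its mean, with two-sided tests and Benjamini-Hochberg adjustment over all kept genes. Intervals are 95% intervals of the fitted log2FC. CPM, RPKM (exon and coding lengths of the RefSeq annotation, all isoforms joined) and log2 CPM (prior count 1) were computed from the deposited counts. The workflow was tested on simulated data.

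The member genes, the lists around them and the markers were chosen with earlier results of these data known. All members are named, and other genes of the route are named when an adjusted p was under 0.05, at most 10 per comparison. Some others are named for their step, their co-variation with DGAT2 or a call in the flow cell fit. The likeness list holds the 5 genes closest to the member with the smallest adjusted p. Symbols were matched to Ensembl identifiers for 11955 tested genes. Promoters were read with pysam 0.24.0 from the RefSeq genome of the same build.

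Alternatives were DESeq2 1.42.0, its size factors in edgeR, leaving out the filter or asking for 10 counts in each library, no limit on size, a fit without the diet that was not compared, a block for the replicate number, a term for the flow cell, the flow cell of WCOC alone, a term for skeletal muscle markers, and leaving out each library in turn. After seeing the data, coding length and a fit on the libraries under 5000 CPM of skeletal muscle markers were added.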

Additional observations from a re-analysis of the deposited data

Results flagged for a closer look

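In 3 of the 27 sets of 5 libraries (9 genes, 3 diets), 1 pig stood apart from the other 4 by Dixon's criterion, which chance gives for about 1 in 20 sets. GPAT3 was at 8.64 CPM in DOP replicate 1, below the other DOP pigs, GPAT4 was at 356 CPM in WCOC replicate 2, above the other WCOC pigs, and LPIN1 was at 647 CPM in DOP replicate 3, above the other DOP pigs. The effects of both olive diets on GPAT3, taken against the same controls, differed by a log2FC of −0.56 (edgeR adjusted p = 0.0439), which is the WCOC vs. DOP comparison given above. Without DOP replicate 1 they differed by −0.63 (edgeR adjusted p = 0.0328), the lowest adjusted p of the 15 fits leaving out 1 library, of which 4 were under 0.05. With flow cell as a covariate the edgeR adjusted p was 0.447.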

How the results depend on the processing

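The number of assembly genes called stayed at 0 in DOP vs. C and in WCOC vs. C under each alternative run. In WCOC vs. DOP it was 1, GPAT3, with no limit on size, and 0 to 1 when each library was left out, the call being made without DOP replicate 1 (log2FC −0.63) or WCOC replicate 3 (−0.67). The adjusted p of GPAT3 in WCOC vs. DOP was 0.0654 with no filter, 0.0651 with only the diets compared and 0.473 with the 4 libraries over 5000 CPM of skeletal muscle markers left out, where DOP keeps 2 pigs, and it ranged from 0.0127 (DESeq2) to 0.447 (flow cell) over the alternatives chosen before this last one, single libraries left out aside. The replicate number did not pair the pigs: same-numbered pigs had correlations from −0.50 to 0.34 and 1 of 15 libraries correlated best with its own number. With the replicate block 0 assembly genes were called, and 0, 473 and 561 genes in all instead of 114, 933 and 1158.

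Some signs turned, none of them in a called value. With flow cell as a covariate, DOP vs. C became −0.0027 for GPAM, 0.0756 for LPIN3, 0.57 for DGAT1 and 0.28 for DGAT2, and WCOC vs. DOP became −0.0853 for AGPAT3 and 0.07 for LPIN2. With the muscle covariate DGAT2 was 0.11 in DOP vs. C. Without the 4 libraries high in muscle markers, LPIN3 was 0.0826 and DGAT1 0.0219 in DOP vs. C, GPAT3 0.0264 in WCOC vs. C and AGPAT3 −0.0373 in WCOC vs. DOP. The fits leaving out 1 library ran from −0.16 to 0.0005 for LPIN3, −0.12 to 0.0737 for DGAT1 and −0.12 to 0.12 for DGAT2 in DOP vs. C, from −0.16 to 0.0677 for GPAT3 in WCOC vs. C, and from −0.0321 to 0.0689 for AGPAT3 in WCOC vs. DOP. The cause was not tested. Coding length moved the mean share of GPAT4 from 96.2% to 89.7%, of LPIN1 from 83.4% to 89.1% and of DGAT2 from 98.7% to 98.1%.

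DOP shares its flow cell with 1 control only, so diet and flow cell are poorly separated there. With flow cell as a covariate WCOC vs. DOP moved from −0.28 to −0.59 for GPAT4, −0.37 to −0.63 for LPIN1, −0.19 to −0.89 for DGAT1, −0.38 to −0.73 for DGAT2, 0.22 to 0.36 for GPAM and 0.33 to 0.15 for LPIN3, none with an edgeR adjusted p under 0.05 (0.263 to 0.780). In the fit without flow cell, changes of GPAT3, GPAT4, LPIN1 and DGAT2 past the limit on size were not resolved in WCOC vs. DOP. DGAT1, whose interval lay within the limit in that fit, was past it with the covariate (−0.89).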
